A study of Caenorhabditis elegans with 11 samples.

Results

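The genes described here are the superoxide dismutases *sod-1* to *sod-5*, the catalases *ctl-1*, *ctl-2* and *ctl-3*, and the peroxiredoxins *prdx-2* and *prdx-3* of *Caenorhabditis elegans*. They were taken by WormBase symbol, all 10 were found, and they are 10 of the 46756 genes in the count tables. Wild-type nematodes (strain N2 Bristol) were synchronized with hypochlorite and raised on *Escherichia coli* OP50 until day 1 of adulthood. They were then fed *E. coli* HT115 making double-stranded RNA against *xpo-1* (*xpo-1* RNAi), or HT115 carrying the empty vector L4440 (control), for 96 hours at 20°C, with daily moves away from progeny, and whole animals were collected on day 5. The product of *xpo-1* is exportin 1, which moves cargo proteins and preribosomal subunits from the nucleus to the cytoplasm. Polyadenylated RNA was sequenced from total lysate, from the monosome fraction of a sucrose gradient (messenger RNA with a single ribosome) and from the polysome fraction (messenger RNA with several ribosomes). *xpo-1* RNAi was represented by 2 total, 1 monosome and 2 polysome libraries, and control by 2 of each kind. RNAi was delivered by feeding to the whole animal, so the data give no view of a single tissue.

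Superoxide, formed mainly as a side product of respiration, is turned into hydrogen peroxide by superoxide dismutases. Catalases break hydrogen peroxide down to water and oxygen, and peroxiredoxins reduce it with electrons drawn from thioredoxin. In the nematode *sod-1* encodes the main cytosolic copper/zinc enzyme, *sod-5* a minor cytosolic one, *sod-2* and *sod-3* the mitochondrial manganese enzymes and *sod-4* an extracellular or membrane-bound enzyme. *ctl-2* encodes the peroxisomal catalase and *ctl-1* a cytosolic catalase, while *ctl-3* is a close copy of both in the same gene cluster. *prdx-2* encodes the cytosolic peroxiredoxin and *prdx-3* the mitochondrial one. *sod-3*, *sod-5* and *ctl-1* are known for their induction by DAF-16, the FOXO factor of the insulin pathway, in long-lived insulin receptor mutants.

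The libraries held 15589628 to 21828657 counts each. Levels are given as CPM (counts relative to library size) scaled with TMM factors over all 11 libraries, a scaling which takes most genes to be unchanged, so that levels are relative within a library. The level of *xpo-1* was 36.5 and 38.3 CPM in *xpo-1* RNAi total RNA, against 312 and 254 CPM in control total RNA, and it fell by 2.94 on the log2 scale (SE 0.18, edgeR adjusted p = 6.91e-05). Markers of several tissues moved with the treatment. Summed over 8 hypodermis markers the level was 464 to 527 CPM in *xpo-1* RNAi total RNA and 1794 to 3088 CPM in control total RNA, and 6 of the 8 genes were called lower, where 16.9% of all genes tested were (called means an adjusted p under 0.05 and over 1.5-fold, and 12% were called higher). Of the body wall muscle markers 7 of 8 were called lower, with sums of 1986 to 2185 CPM in *xpo-1* RNAi total RNA and 2752 to 5044 CPM in control total RNA, and of the pharynx markers 4 of 6. For intestine, 1 of 9 markers was called higher and 4 lower in total RNA, with sums of 16586 to 18403 CPM in *xpo-1* RNAi total RNA and 15197 to 15606 CPM in control total RNA. The yolk protein gene *vit-2* made up most of these sums, and without it, a sum chosen after seeing the data, the other markers had 3843 to 4629 CPM in *xpo-1* RNAi total RNA and 4970 to 6076 CPM in control total RNA. The germline markers summed to 5942 to 6388 CPM in *xpo-1* RNAi total RNA and 6670 to 7568 CPM in control total RNA, with 1 of 8 called lower. Of the sperm markers 1 was higher and 3 lower of 7 tested, of the embryo markers 0 higher and 1 lower of 5, and of the neuron markers 1 higher and 0 lower of 8. No marker of hypodermis, muscle, pharynx, intestine or germline was at 0 in total RNA. In whole animals a loss of cells of a type and a loss of RNA per cell cannot be told apart, and the part of these marker shifts in the results below was not tested.

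On the WBcel235 assembly the 3 catalase genes lie side by side on the minus strand of chromosome II, *ctl-2* (WBGene00000831) at 14299553 to 14302083, *ctl-1* (WBGene00000830) at 14303612 to 14306329 and *ctl-3* (WBGene00013220) at 14307854 to 14310779, with gaps of 1528 and 1524 nt between them. Because they are close copies, reads could be split between them, and their single values are less certain than their sum. On the same chromosome lie *sod-1* (WBGene00004930, 6972712 to 6973892, minus strand), *sod-5* (WBGene00007036, 4417683 to 4419131, plus strand) and *prdx-2* (WBGene00006434, 5378068 to 5379632, plus strand). *sod-4* (WBGene00004933, 9497019 to 9500202, minus strand) and *prdx-3* (WBGene00011110, 4407444 to 4408437, plus strand) are on chromosome III and *sod-3* (WBGene00004932, 17092718 to 17094223, plus strand) on the X chromosome. *sod-2* (WBGene00004931) is on the plus strand of chromosome I, where the count table takes it from 8417124 to 8435811 and the Ensembl annotation from 8434550 to 8435807. Exons of *sod-1*, *sod-2*, *sod-3*, *sod-4* and *ctl-2* overlap exons of neighbouring genes by 26 to 81 nt, and reads in those stretches may belong to the neighbour. The coding sequences of the superoxide dismutases and peroxiredoxins span 534 to 678 nt and those of the catalases 1491 to 1536 nt.

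Per kilobase of exon (RPKM), the peroxiredoxin and superoxide dismutase genes of the cytosol led in control total RNA, with 1244 and 1186 RPKM for *prdx-2* and 528 and 499 RPKM for *sod-1*. The mitochondrial enzymes followed, *prdx-3* with 242 and 252 RPKM and *sod-2* with 172 and 174 RPKM. Below these came *ctl-2* with 22.3 and 22.8 RPKM, *ctl-3* with 8.0 and 8.1 RPKM, *sod-4* with 6.66 and 7.06 RPKM, *sod-3* with 4.38 and 4.21 RPKM, *ctl-1* with 3.43 and 3.55 RPKM and *sod-5* with 0.096 and 0.25 RPKM. No neighbours in this order overlapped between the control total libraries. In *xpo-1* RNAi total RNA *ctl-1* stood above *sod-3*, with 8.46 and 8.97 RPKM for *ctl-1* and 2.83 and 2.28 RPKM for *sod-3*, while *prdx-3* (203 and 156 RPKM) and *sod-2* (184 and 142 RPKM) overlapped. In *xpo-1* RNAi polysome RNA the leading gene was *sod-1* with 606 and 717 RPKM, above *prdx-2* with 523 and 583 RPKM, whereas in control polysome RNA *prdx-2* led with 1220 and 1117 RPKM above *sod-1* with 862 and 774 RPKM. Together the 10 genes took 0.161% to 0.187% of the counts of *xpo-1* RNAi total libraries and 0.163% to 0.172% of control total libraries. In polysome RNA they took 0.169% to 0.192% under *xpo-1* RNAi and 0.220% to 0.227% in control.

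**Figure D1:**
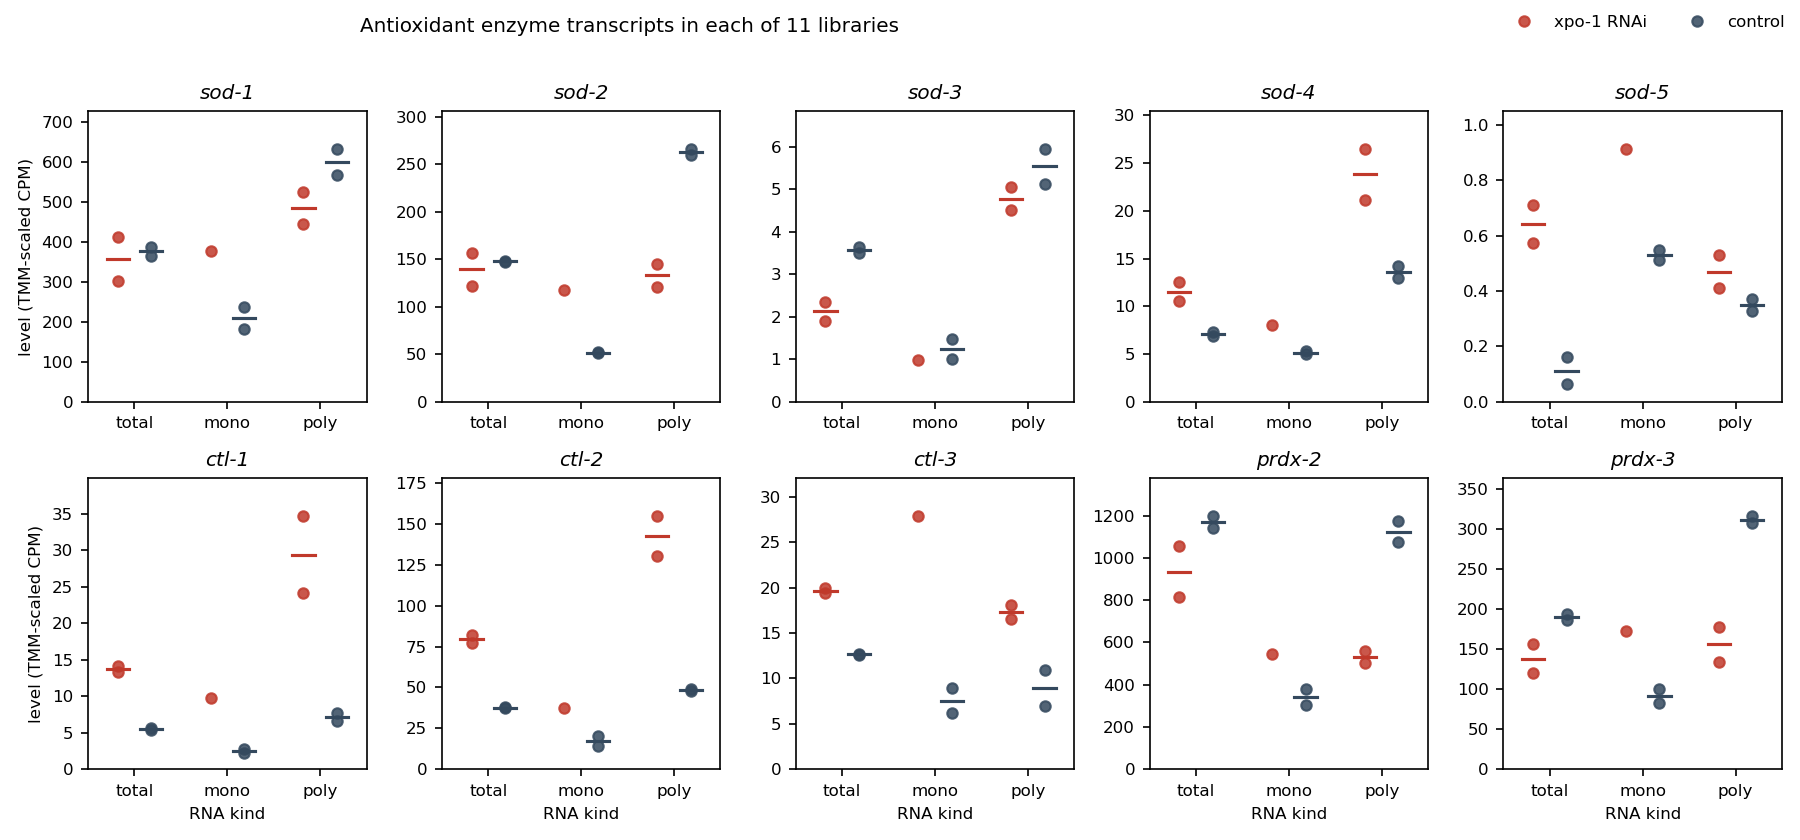
Level (TMM-scaled CPM, linear axes starting at 0) of each gene in every library by RNA kind, *xpo-1* RNAi in red left of control in blue, with each point a library and each bar the mean of 2 libraries. The catalases lie above control in total, monosome and polysome RNA, while *sod-2*, *prdx-2* and *prdx-3* lie above control in monosome RNA and below it in polysome RNA.

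The first comparison asked how steady-state messenger levels of these enzymes differed after *xpo-1* silencing. In total RNA the 3 catalase transcripts rose, the transcripts of *sod-1*, *sod-2* and the peroxiredoxins did not pass the test, and the rarest superoxide dismutase, *sod-5*, was called higher on few counts. Over all genes tested 28.9% passed an adjusted p of 0.05 with a change over 1.5-fold and are termed called, 12% on the higher and 16.9% on the lower side. Of the 9 genes other than *sod-5*, the 3 catalases were called higher and none lower, and 6 did not pass. *sod-5* entered the test only through its high group and is set apart from these shares. Over all genes the median log2 value was 0.01 in this fit.

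*ctl-2*, the peroxisomal catalase and the most abundant of the group, had 82.2 and 76.9 CPM in *xpo-1* RNAi total RNA, against 37.2 and 38.2 CPM in control total RNA. Its level was thus 2.08-fold higher (log2 fold change 1.06, SE 0.16, edgeR adjusted p = 0.00128). *ctl-1* had 13.4 and 14.2 CPM in *xpo-1* RNAi total RNA, against 5.41 and 5.61 CPM in control total RNA. The groups lay far apart, and the transcript rose by 1.30 on the log2 scale (SE 0.24, edgeR adjusted p = 0.00298). *ctl-3* had 19.4 and 19.9 CPM in *xpo-1* RNAi total RNA, against 12.6 and 12.7 CPM in control total RNA, which again did not overlap. Its rise of 0.61 on the log2 scale (SE 0.21, edgeR adjusted p = 0.0448) lay just past the fold threshold, and the call was lost without any of control replicate 1 (log2 fold change 0.56), *xpo-1* RNAi replicate 1 (edgeR adjusted p = 0.244) or *xpo-1* RNAi replicate 2 (edgeR adjusted p = 0.287). The call for *ctl-1* was lost only without *xpo-1* RNAi replicate 2 (edgeR adjusted p = 0.0762), and *ctl-2* was called with each of the 4 libraries left out in turn. DESeq2 did not call *ctl-3* (adjusted p = 0.0548). With the 3 genes summed to 1 row, so that the split of reads between copies has no effect, catalase transcripts rose by 1.00 on the log2 scale (SE 0.16, edgeR adjusted p = 0.00138).

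*sod-5* was rare in every library. It had 13 and 13 counts in *xpo-1* RNAi total RNA, against 1 and 3 counts in control total RNA, so only the *xpo-1* RNAi libraries reached the count minimum. Per total counts the ratio of the summed counts was 6.62, with a 95% interval of 2.30 to 26.1 that covers counting error only. The fitted log2 value of 2.38 (SE 0.68, edgeR adjusted p = 0.0246) depends on the prior count. The call was lost in DESeq2 (adjusted p = 0.209) and without control replicate 1. Without either *xpo-1* RNAi library the gene missed the count minimum and was not tested.

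The remaining superoxide dismutases did not pass in total RNA. The extracellular enzyme gene *sod-4* had 12.5 and 10.5 CPM in *xpo-1* RNAi total RNA, against 6.93 and 7.34 CPM in control total RNA. These ranges did not overlap (log2 fold change 0.67, SE 0.24, edgeR adjusted p = 0.0588), and the gene was called without control replicate 1 (edgeR adjusted p = 0.041) or control replicate 2 (edgeR adjusted p = 0.0249). *sod-3*, the inducible mitochondrial enzyme gene, had 2.35 and 1.90 CPM in *xpo-1* RNAi total RNA, against 3.65 and 3.51 CPM in control total RNA. These did not overlap either, but the log2 value of −0.77 (SE 0.34) missed the threshold (edgeR adjusted p = 0.106). *sod-3* was called lower without control replicate 1 (−0.79) or control replicate 2 (−0.84), with an edgeR adjusted p of 0.0493 in either fit. For *sod-1* the values were 411 and 301 CPM in *xpo-1* RNAi total RNA and 387 and 365 CPM in control total RNA, and for *sod-2* they were 157 and 122 CPM in *xpo-1* RNAi total RNA and 147 and 148 CPM in control total RNA. For both genes the control values lay between those of the *xpo-1* RNAi libraries, with log2 fold changes of −0.10 (SE 0.19) and −0.11 (SE 0.17).

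*prdx-2* had 1055 and 816 CPM in *xpo-1* RNAi total RNA, against 1197 and 1141 CPM in control total RNA. *prdx-3* had 156 and 120.2 CPM in *xpo-1* RNAi total RNA, against 186 and 194 CPM in control total RNA. Every *xpo-1* RNAi library lay below the control libraries for both peroxiredoxins, with log2 fold changes of −0.34 (SE 0.20, edgeR adjusted p = 0.218) for *prdx-2* and −0.48 (SE 0.18, edgeR adjusted p = 0.0625) for *prdx-3*. Among all genes 32.2% lay below control without overlap and 36.5% above it. *sod-1*, *sod-2*, *prdx-2* and *prdx-3*, the most abundant of these genes, shared a difference between the *xpo-1* RNAi total libraries, since each was lower in replicate 2 than in replicate 1, by log2 ratios of −0.37 to −0.45. Over 9705 genes the SD of this replicate ratio was 0.26.

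Scaling by total counts in place of TMM moved the median of all genes to 0.30 in the total RNA fit and 0.40 in the polysome fit. It also turned the balance of calls, with 3305 genes higher and 1647 lower in total RNA, against 1649 higher and 2337 lower under TMM, and with 4503 higher and 2209 lower in polysome RNA, against 2161 higher and 3127 lower under TMM. Directions given here are therefore relative to the bulk of genes. Under that scaling the small negative values of *sod-1* and *sod-2* in total RNA, and of *sod-1* and *sod-3* in polysome RNA, changed sign.

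The second comparison asked the same of messenger RNA loaded with several ribosomes. In polysome RNA the catalases and *sod-4* rose relative to the bulk of genes, and *sod-2*, *prdx-2* and *prdx-3* fell by about the same amount. In the study's polysome profiles the monosome and polysome peaks were markedly flatter under *xpo-1* RNAi. Levels scaled within a library do not show the amount of RNA in a fraction. Over all genes 37.9% were called, 15.5% higher and 22.4% lower, and without regard to the test 39.8% of expressed genes lay above control without overlap and 32.7% below. Of the 9 genes tested 4 were called higher, 3 lower and 2 did not pass, and the 3 lower genes encode both mitochondrial enzymes of high abundance and the cytosolic peroxiredoxin. *sod-5* had 10 and 8 counts in *xpo-1* RNAi polysome RNA and 6 and 6 counts in control polysome RNA and did not reach the count minimum. Its ratio per total counts was 1.71, with a 95% counting interval of 0.779 to 3.89.

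*ctl-1* had 24.2 and 34.6 CPM in *xpo-1* RNAi polysome RNA, against 7.69 and 6.62 CPM in control polysome RNA. This 3.91-fold difference (log2 fold change 1.97, SE 0.26, edgeR adjusted p = 0.000825) was the largest among the 9 genes tested. *ctl-2* had 131 and 155 CPM in *xpo-1* RNAi polysome RNA, against 48.0 and 49.1 CPM in control polysome RNA. It was 2.80-fold higher (log2 fold change 1.49, SE 0.21, edgeR adjusted p = 0.00109). *ctl-3* had 16.5 and 18.1 CPM in *xpo-1* RNAi polysome RNA, against 10.9 and 6.93 CPM in control polysome RNA. It was 1.85-fold higher (log2 fold change 0.89, SE 0.26, edgeR adjusted p = 0.0287), and the call was lost without *xpo-1* RNAi replicate 1 (edgeR adjusted p = 0.132), *xpo-1* RNAi replicate 2 (edgeR adjusted p = 0.194) or control replicate 2 (edgeR adjusted p = 0.0527). Summed, the catalases rose by 1.48 on the log2 scale (SE 0.21, edgeR adjusted p = 0.00111). *ctl-2* made up 74.6% to 76.2% of catalase counts in *xpo-1* RNAi polysome RNA and 72.1% to 78.4% in control polysome RNA. Over the same libraries *ctl-1* made up 14.1% to 16.7% under *xpo-1* RNAi and 10.6% to 11.5% in control.

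*sod-4* had 21.1 and 26.5 CPM in *xpo-1* RNAi polysome RNA, against 14.2 and 13 CPM in control polysome RNA. The groups did not overlap (log2 fold change 0.74, SE 0.22, edgeR adjusted p = 0.0283), though the call was lost without *xpo-1* RNAi replicate 1 (edgeR adjusted p = 0.097) or replicate 2 (edgeR adjusted p = 0.291). *sod-2*, the main mitochondrial enzyme gene, had 121 and 145 CPM in *xpo-1* RNAi polysome RNA, against 266 and 260 CPM in control polysome RNA. It was 2.07-fold lower (log2 fold change −1.05, SE 0.20, edgeR adjusted p = 0.00388). *sod-1* had 444 and 525 CPM in *xpo-1* RNAi polysome RNA, against 631 and 566 CPM in control polysome RNA, and *sod-3* had 4.50 and 5.04 CPM under *xpo-1* RNAi against 5.13 and 5.94 CPM in control. Neither passed, with log2 fold changes of −0.38 (SE 0.18, edgeR adjusted p = 0.135) for *sod-1* and −0.28 (SE 0.28, edgeR adjusted p = 0.457) for *sod-3*, although in both the *xpo-1* RNAi values lay below those of control.

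*prdx-2* had 503 and 561 CPM in *xpo-1* RNAi polysome RNA, against 1174 and 1075 CPM in control polysome RNA. It was 2.22-fold lower (log2 fold change −1.15, SE 0.17, edgeR adjusted p = 0.00137). *prdx-3* had 134 and 178 CPM in *xpo-1* RNAi polysome RNA, against 308 and 316 CPM in control polysome RNA. It was 2.10-fold lower (log2 fold change −1.07, SE 0.21, edgeR adjusted p = 0.00488). Without *xpo-1* RNAi polysome replicate 1 the calls for *sod-2* (edgeR adjusted p = 0.0935) and *prdx-3* (edgeR adjusted p = 0.10) were lost, and 3 genes, *ctl-1*, *ctl-2* and *prdx-2*, were still called. Under scaling by total counts the log2 fold changes of *sod-2*, *prdx-2* and *prdx-3* were −0.65, −0.74 and −0.67, and all 3 were called lower. In polysome RNA 6 of 8 hypodermis markers, 4 of 6 pharynx markers and 3 of 8 muscle markers were called lower, 4 of 9 intestine markers lower and 2 higher, and 0 of 8 germline markers were called, where 15.5% of all genes were called higher and 22.4% lower. Of the sperm markers 2 were higher and 4 lower of 6 tested, of the embryo markers 0 higher and 3 lower of 5, and of the neuron markers 2 higher and 0 lower of 8. The intestine markers summed to 12909 to 15438 CPM in *xpo-1* RNAi polysome RNA and 7995 to 8532 CPM in control polysome RNA. Without *vit-2* they summed to 2756 to 3302 CPM in *xpo-1* RNAi polysome RNA and 4005 to 4814 CPM in control polysome RNA. At 0 were 1 pharynx and 1 sperm marker in *xpo-1* RNAi polysome replicate 2. Of the 9 embryo markers listed, 3 and 2 were at 0 in *xpo-1* RNAi polysome RNA and 2 and 2 in control polysome RNA.

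**Figure D2:**
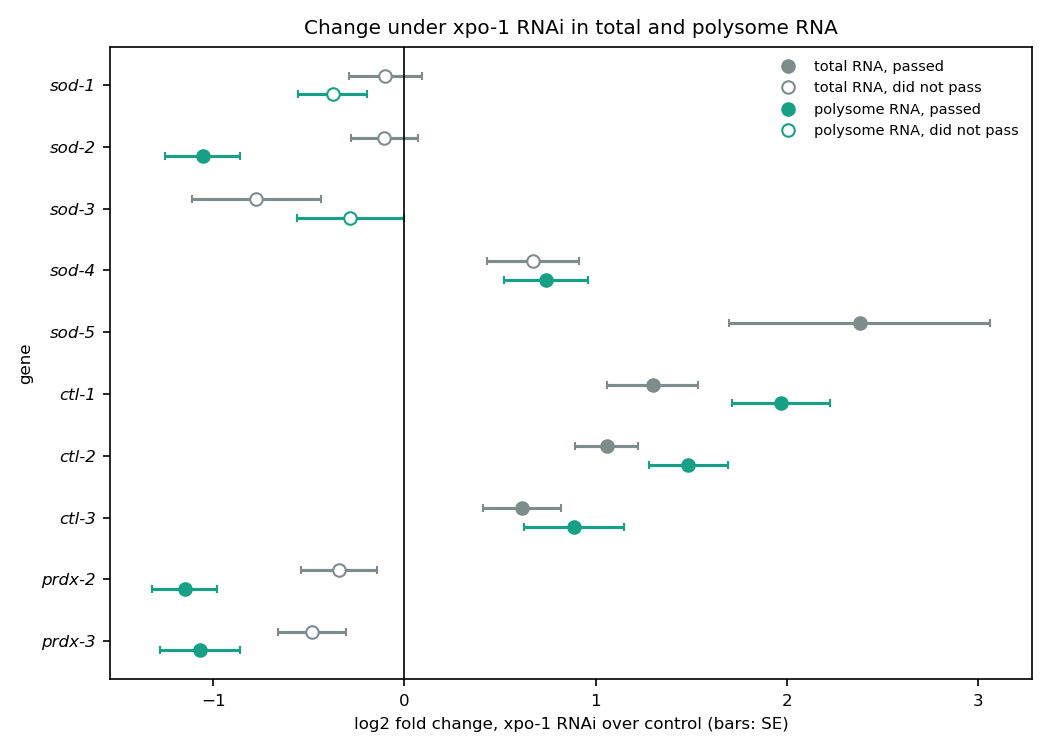
Log2 fold change of *xpo-1* RNAi over control from edgeR, with bars of 1 SE, for each gene in total RNA (grey) and polysome RNA (green), where filled points passed an adjusted p of 0.05 and 1.5-fold. *sod-5* has no polysome point because it was below the count minimum, *sod-2*, *prdx-2* and *prdx-3* pass in polysome RNA only, and the catalases pass in both.

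Whether the polysome change differed from the total change was tested directly as an interaction over the 8 libraries of both kinds. None of the 10 genes passed, and 0% of all genes were called by edgeR, with 3 of the 10 genes and 16.1% of all genes at an unadjusted p under 0.05. Passing in polysome RNA and not in total RNA was therefore not shown to be a difference in this fit. *sod-5* entered this fit through *xpo-1* RNAi libraries only. The values nearest to a call were *sod-2* with a polysome change lower than its total change by a log2 value of −0.90 (unadjusted p = 0.00495, edgeR adjusted p = 0.13), *prdx-2* with −0.76 (unadjusted p = 0.0129, edgeR adjusted p = 0.18) and *ctl-1* with 0.71 (unadjusted p = 0.0443, edgeR adjusted p = 0.294). DESeq2 called 690 of the 14900 genes in the fit and 2 of the 10, *sod-2* (−0.94, adjusted p = 0.0225) and *prdx-2* (−0.80, adjusted p = 0.0488). Total and polysome RNA were drawn from the same lysates according to the study's methods. Taking same-numbered libraries as 1 lysate is a replicate block that the labels do not state. With it edgeR called 1961 of the 14900 genes, and of the 10 only *sod-2* (−0.90, adjusted p = 0.00788).

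The monosome fraction gave a contrasting picture. *xpo-1* RNAi had 1 library, the difference was not tested here, and log2 ratios of levels with 0.5 CPM added are given as a description. The *xpo-1* RNAi library lay above both control libraries for 9 of the 10 genes and below them for *sod-3*, where 40.3% of all expressed genes lay above and 36.7% below. Past 1.5-fold higher were 8 of the 10 genes, and none past it lower, against 17.6% of the 11799 expressed genes, of which 36.1% were past it in either direction and 18.5% lower. Under scaling by total counts, which moved the median log2 ratio of expressed genes to −0.34 from 0.01, only 4 of the 10, *sod-2*, *ctl-1*, *ctl-2* and *ctl-3*, were past 1.5-fold higher, against 7.81% of expressed genes.

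*sod-2* had 117 CPM in the *xpo-1* RNAi monosome library, against 51.2 and 52.7 CPM in control monosome RNA. *prdx-2* had 543 CPM in the *xpo-1* RNAi monosome library, against 305 and 379 CPM in control monosome RNA. *prdx-3* had 172 CPM in the *xpo-1* RNAi monosome library, against 101 and 82.9 CPM in control monosome RNA. These 3 transcripts, lower in polysome RNA, were thus higher in monosome RNA, with log2 ratios of 1.17, 0.67 and 0.91, and so was *sod-1*, with 377 CPM in the *xpo-1* RNAi library, against 237 and 182 CPM in control (log2 ratio 0.85). A gene above control in monosome RNA and below control in polysome RNA, without overlap, was found in 6.87% of expressed genes (811 of 11799) and in these 4 of the 10. Under scaling by total counts the polysome values of *sod-1* overlapped control, and the pattern was found in 3 of the 10 and in 1.76% of expressed genes. *ctl-3* had 27.8 CPM in the *xpo-1* RNAi monosome library, against 8.97 and 6.14 CPM in control monosome RNA, a log2 ratio of 1.82. *ctl-1* (9.72 CPM, against 2.25 and 2.70 CPM) and *ctl-2* (37.4 CPM, against 20.2 and 13.8 CPM) had log2 ratios of 1.78 and 1.11. *sod-4* had a log2 ratio of 0.61 and *sod-3* of −0.24, and *sod-5*, with 14 counts against 22 counts in the control libraries together, had a ratio per total counts of 1.33 with a 95% counting interval of 0.628 to 2.71. In the same monosome library the intestine markers summed to 33824 CPM, against 7344 to 13052 CPM in control monosome RNA. Of these sums *vit-2* was 27483 CPM in the *xpo-1* RNAi library, against 7656 and 3442 CPM in control, and without it the sums were 6341 CPM, against 3902 to 5396 CPM. Germline markers summed to 10457 CPM in that library, against 7299 to 8582 CPM in control monosome RNA. Neuron markers had 585 CPM, against 347 to 379 CPM, and embryo markers 297 CPM, against 160 to 162 CPM. Hypodermis markers were lower, with 452 CPM against 964 to 983 CPM. The muscle, pharynx and sperm sums lay within the control range. The part of these marker shifts in the values above was not tested.

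In control worms the polysome and monosome fractions could be compared with 2 libraries each. Of the 10 genes 8 were higher in polysome RNA and none lower, where 33% of all genes were called, 14.7% higher and 18.3% lower. The largest difference among the 10 was that of *sod-2* (log2 fold change 2.25, edgeR adjusted p = 0.00317), followed by *sod-3* (2.06, edgeR adjusted p = 0.00974), *prdx-3* (1.68, edgeR adjusted p = 0.0058) and *prdx-2* (1.63, edgeR adjusted p = 0.00526). *ctl-1* (1.44), *sod-1* (1.43), *ctl-2* (1.42) and *sod-4* (1.32) were called higher too, though *ctl-1* was not called without control monosome replicate 1 (edgeR adjusted p = 0.0733) or control polysome replicate 1 (edgeR adjusted p = 0.0969), nor *sod-4* without that polysome library (edgeR adjusted p = 0.0654). *ctl-3* (0.16, edgeR adjusted p = 0.774) and *sod-5* (−0.68, edgeR adjusted p = 0.457) did not pass. *sod-5*, counted among the 10 above, entered the test only through its monosome libraries, with 10 and 12 counts, against 6 and 6 in polysome RNA. *ctl-3* thus stood apart from its neighbours in the cluster by its level in the 2 fractions, a difference between genes that was not tested. The sign of *ctl-3* turned without control monosome replicate 2 (−0.13) or control polysome replicate 1 (−0.22).

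The ratio of polysome to monosome level was below that of control for the most abundant transcripts, *sod-1*, *sod-2*, *prdx-2* and *prdx-3*. As log2 values it was 0.18 under *xpo-1* RNAi and 2.33 in control for *sod-2*, −0.03 under *xpo-1* RNAi and 1.72 in control for *prdx-2*, −0.14 under *xpo-1* RNAi and 1.76 in control for *prdx-3*, and 0.36 under *xpo-1* RNAi and 1.51 in control for *sod-1*. The difference of these log2 ratios, called translation efficiency (TE) in the study, was −2.15 for *sod-2*, −1.90 for *prdx-3*, −1.75 for *prdx-2* and −1.15 for *sod-1*. A TE past 2-fold lower was found in 11.3% of expressed genes and one past 2-fold higher in 6.84%, with a median of 0.08 (0.74 under scaling by total counts, so that TE values are relative to the bulk of genes). *sod-2* stood at percentile 1.76 of expressed genes, *prdx-3* at 2.81, *prdx-2* at 3.78 and *sod-1* at 8.98. With single libraries in place of means the 8 possible combinations gave −2.32 to −1.99 for *sod-2*, −2.28 to −1.56 for *prdx-3*, −2.05 to −1.46 for *prdx-2* and −1.55 to −0.78 for *sod-1*, all resting on the same *xpo-1* RNAi monosome library. For the catalases TE was 0.43 for *ctl-2* (0.0019 to 0.81 over the combinations) and 0.19 for *ctl-1* (−0.30 to 0.63), whereas *ctl-3* had −0.90 (−1.52 to −0.26). *sod-4* had 0.18 (−0.085 to 0.43), *sod-3* 0.05 (−0.34 to 0.40) and *sod-5* −0.26 (−0.42 to −0.11).

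**Figure D3:**
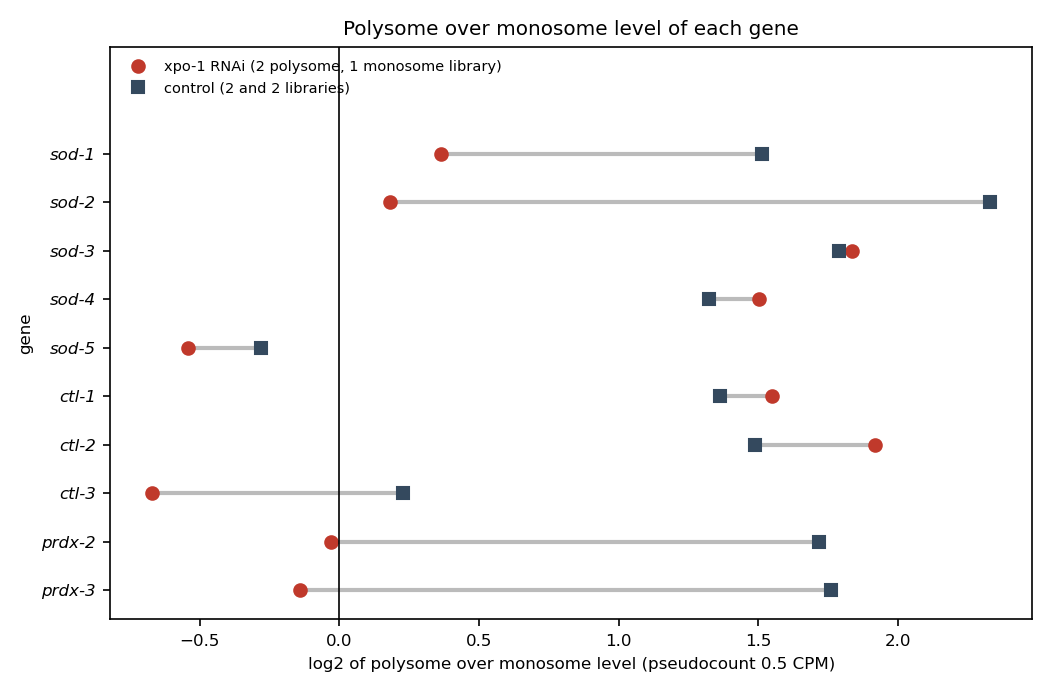
Log2 of the polysome over the monosome level of each gene (0.5 CPM added), with red circles for *xpo-1* RNAi (2 polysome libraries and 1 monosome library) and blue squares for control (2 of each), joined by a line whose length is the TE. *sod-2*, *prdx-2*, *prdx-3* and *sod-1* lie far to the left of control, and *ctl-1*, *ctl-2*, *sod-3* and *sod-4* lie at or to the right of it.

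Coding length differed between the families, and all genes in the length classes of the families differed in their medians. Genes with a coding sequence of 500 to 700 nt, the class of the superoxide dismutases and peroxiredoxins, had median log2 fold changes of −0.06 in total and −0.39 in polysome RNA, and a median TE of −0.28 over 1289 genes. Genes of 1400 to 1600 nt, the class of the catalases, had medians of 0.10 in total and 0.19 in polysome RNA, and a median TE of 0.25 over 927 genes. Only these classes were compared, and their quartile ranges overlapped. In polysome RNA the quartiles were −1.13 and 0.25 for the shorter class and −0.26 and 0.67 for the longer class. The part of length in the values of the 10 genes was not tested.

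The wider antioxidant network was described from 8 further lists of 62 genes. In total RNA 7 of 59 tested genes were higher, 6 lower and 46 did not pass, and in polysome RNA 13 of 58 were higher, 12 lower and 33 did not pass. In the interaction 0 of 59 were called by edgeR, where 0% of all genes were. Passing in polysome RNA only was therefore not shown to be a difference for these lists either. Over all genes tested 12% were higher and 16.9% lower in total RNA, and 15.5% higher and 22.4% lower in polysome RNA, the shares against which the counts of each list below are to be read. The metal handling list holds ferritin and metallothionein genes, the metal transporter gene *smf-3* and *cuc-1*. It had 3 of 6 genes higher and none lower in total RNA (median log2 fold change 0.75). In polysome RNA 3 were higher and 1, *cuc-1* (−1.29), was lower (median 0.94). *ftn-1*, a ferritin gene, had 106 and 93.2 CPM in *xpo-1* RNAi total RNA, against 31.6 and 15.1 CPM in control total RNA (log2 fold change 2.08, edgeR adjusted p = 0.000756), and it rose by 2.20 in polysome RNA on the log2 scale (edgeR adjusted p = 0.00148). *mtl-1*, a metallothionein gene, rose by 1.60 in total RNA (edgeR adjusted p = 0.00122) and by 1.68 in polysome RNA (edgeR adjusted p = 0.00105). The third gene called higher in both was the metal transporter *smf-3*, at a mean of 3.48 CPM in total RNA.

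Among enzymes that also remove peroxides, the glutathione peroxidase list had 0 higher and 2 lower of 8 in total RNA (median −0.58) and 0 higher and 3 lower of 7 in polysome RNA (median −0.86). *gpx-5* fell by 0.89 on the log2 scale in total RNA (edgeR adjusted p = 0.0152). Of the thioredoxins and their reductases, which return electrons to peroxiredoxins, 0 of 5 were called in total RNA (median 0.01) and 2 of 5, *trx-2* and *trx-4*, were lower in polysome RNA (median −0.71). *trx-2*, the mitochondrial thioredoxin gene, had 29.4 and 30.8 CPM in *xpo-1* RNAi polysome RNA, against 57.8 and 63.6 CPM in control polysome RNA (log2 fold change −1.08, edgeR adjusted p = 0.00382). *trx-2*, *trx-4*, *smf-3*, *cuc-1*, *wdr-23*, *vit-2*, *skpo-2*, *bli-3* and *doxa-1* were singled out after their values were seen.

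In the list of glutathione synthesis, reduction and glutaredoxins, 1 of 8 genes was higher and 2 lower in total RNA (median −0.23), and likewise 1 higher and 2 lower in polysome RNA (median −0.39). *glrx-21*, a glutaredoxin gene, had 16.7 and 19.9 CPM in *xpo-1* RNAi polysome RNA, against 46.1 and 52.6 CPM in control polysome RNA (log2 fold change −1.5, edgeR adjusted p = 0.00124). *msra-1*, which encodes a methionine sulfoxide reductase that repairs oxidised proteins, fell by 1.35 in total RNA (edgeR adjusted p = 0.000609) and by 1.44 in polysome RNA (edgeR adjusted p = 0.00165) on the log2 scale. Its list of repair and NADPH-supplying genes had 1 of 6 higher and 1 lower in total RNA (median 0.03) and 2 higher and 2 lower in polysome RNA (median −0.16). The list of oxidant producers also holds peroxidase genes. It had 1 of 5 genes higher, *skpo-1*, and 1 lower, *skpo-2*, in either kind of RNA. *bli-3* and *doxa-1* were not called in either kind. The medians of the list were −0.61 in total and −0.02 in polysome RNA. Peroxisome assembly genes, which build the organelle of *ctl-2*, had 0 of 11 called in total RNA (median 0.16) and 1 lower in polysome RNA (median 0.30). In control worms the called genes at the ends of these lists, among those with a mean of at least 10 CPM, were *ftn-1* (2.69, edgeR adjusted p = 0.0108) and the peroxidase gene *skpo-1* (2.57, edgeR adjusted p = 0.00302), higher in polysome than in monosome RNA, and the heat shock factor gene *hsf-1* (−1.36, edgeR adjusted p = 0.0173) and the glutathione synthetase gene *gss-1* (−1.26, edgeR adjusted p = 0.0298), lower there.

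**Figure D4:**
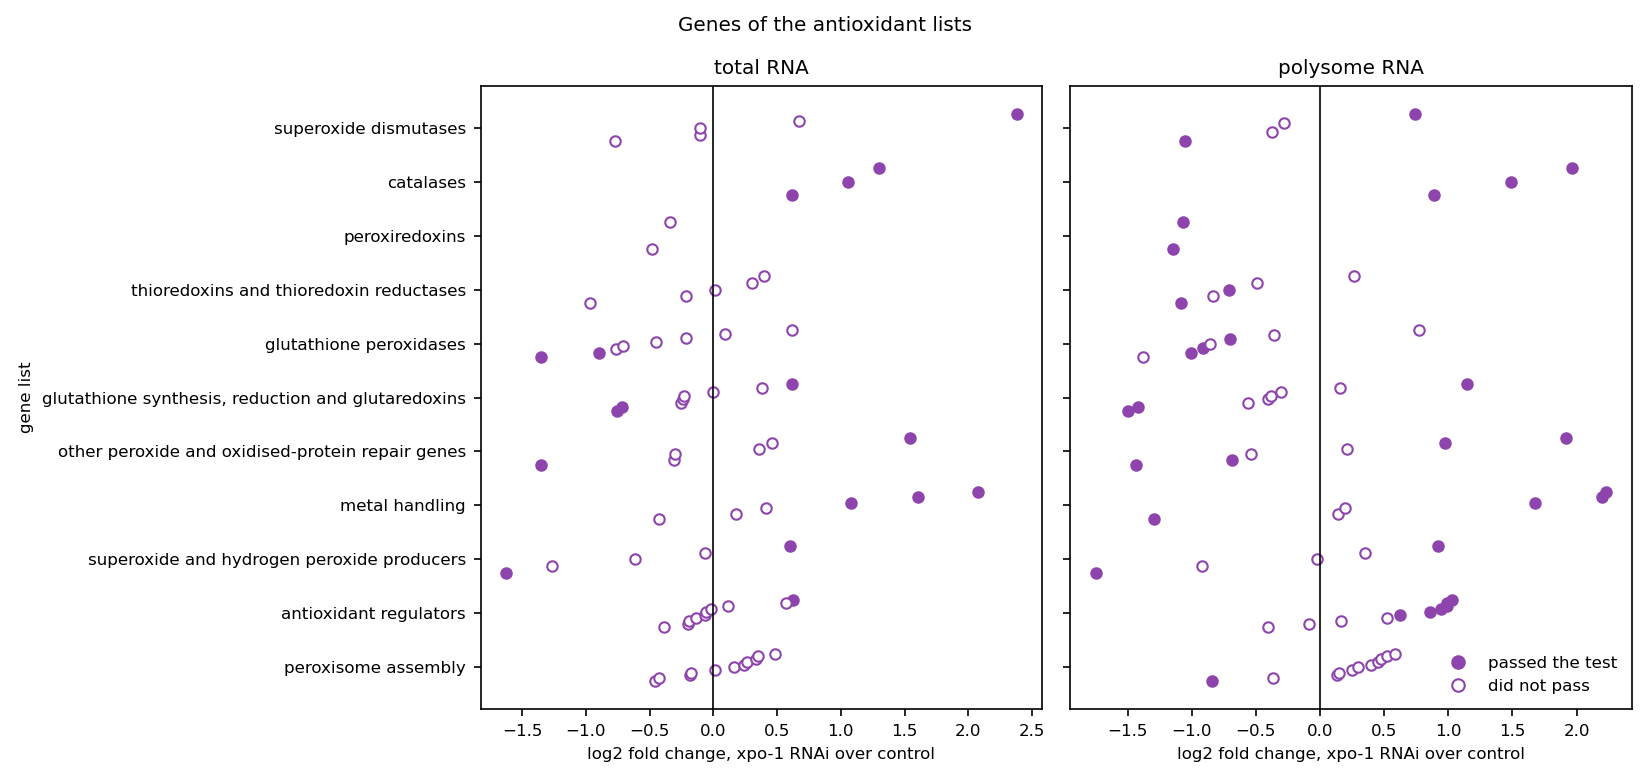
Log2 fold change of *xpo-1* RNAi over control for every tested gene of the 3 families described here and of 8 further antioxidant lists, in total RNA (left panel) and polysome RNA (right panel), with filled points for genes that passed the test. All 3 catalases pass on the higher side in both panels, the peroxiredoxins pass on the lower side in polysome RNA, and the regulators have 1 called gene in total RNA and 6 in polysome RNA.

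The regulators of these enzymes had few calls in total RNA, and 0 of 10 were called in the interaction. Of the 10 regulators 1, *wdr-23*, was higher in total RNA (median −0.06), against 12% of all genes, and 6 were higher in polysome RNA (median 0.74), against 15.5%. *skn-1*, the Nrf factor of the oxidative stress response, had 186 and 172 CPM in *xpo-1* RNAi total RNA, against 202 and 167 CPM in control total RNA. In polysome RNA it had 186 and 164 CPM under *xpo-1* RNAi, against 109 and 58.8 CPM in control (log2 fold change 0.99, edgeR adjusted p = 0.0256). *daf-16* had 97.4 and 103.9 CPM in *xpo-1* RNAi total RNA, against 105 and 96.8 CPM in control total RNA, and 120.5 and 113 CPM in *xpo-1* RNAi polysome RNA, against 63.6 and 45.2 CPM in control polysome RNA (log2 fold change in polysome RNA 1.03, edgeR adjusted p = 0.00777). *hlh-30*, the TFEB factor of autophagy and lysosomal genes, had 57.3 and 63.5 CPM in *xpo-1* RNAi total RNA, against 68.8 and 86.4 CPM in control total RNA, and 105 and 95.3 CPM in *xpo-1* RNAi polysome RNA, against 57.0 and 39.3 CPM in control polysome RNA (log2 fold change in polysome RNA 0.99, edgeR adjusted p = 0.0107). For these 3 factors the polysome change exceeded the total change by log2 values of 1.10, 1.10 and 1.42, none of which passed as an interaction (edgeR adjusted p = 0.183, 0.101 and 0.0972).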

How the data were processed

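Whole-number counts per gene for 11 libraries, with exon coordinates on WBcel235 and exonic length, were deposited by the authors. The submitters' processing notes name Trimmomatic, STAR, Subread and featureCounts. Versions, the use of strand and the handling of reads shared by near-identical genes are not given in the sources used here. The deposited normalized tables were not used. No column was left unassigned (0). Symbols matched 43798 of 46756 identifiers.

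Total, polysome and control polysome against monosome RNA were each fitted with edgeR 4.0.16 (R 4.3.3), quasi-likelihood test, TMM, on genes with at least 10 counts in at least 2 libraries. The interaction used the 8 total and polysome libraries. Adjustment was Benjamini-Hochberg over all genes, and calls needed an adjusted p under 0.05 and over 1.5-fold. SE is the log2 fold change over the square root of F. A pseudocount of 0.5 CPM was added for log2 ratios, and expressed genes had at least 1 CPM in at least 6 libraries. The fits were also run on simulated independent libraries with the same spread for every gene. That setting is simpler than these data and lends no weight to the calls. Alternatives were DESeq2 1.42.0, other scalings and filters, summed catalases, replicate blocks and each library left out. Counts of replicates differed by more than counting error (chi-square per degree of freedom 12.9 to 56.3). They are biological duplicates in the study's methods. The p-values rest on the spread between 2 cultures per group, which edgeR moderates with the spread of all genes.

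The members and lists were chosen with earlier results of these data known. By rule the text names all 10 genes, in each contrast the 2 highest and 2 lowest called genes of the lists with a mean of at least 10 CPM, *skn-1*, *daf-16*, *hlh-30* and *xpo-1*, and the 3 genes nearest in pattern to the gene with the largest polysome change.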

Additional observations from a re-analysis of the deposited data

Results flagged for a closer look

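For 4 genes every *xpo-1* RNAi polysome library lay below both control polysome libraries while the *xpo-1* RNAi monosome library lay above both control monosome libraries, so the same treatment went opposite ways in the 2 fractions. The log2 difference of the polysome to monosome ratios, *xpo-1* RNAi minus control, was −2.15 for *sod-2*, −1.90 for *prdx-3*, −1.75 for *prdx-2* and −1.15 for *sod-1*. The same arrangement was found in 6.87% of expressed genes. These differences are described and were not tested. For *sod-1* the arrangement depends on the scaling: with scaling by total counts it had 537 and 612 CPM in *xpo-1* RNAi polysome RNA, against 581 and 543 CPM in control polysome RNA, which overlap, and its polysome change did not pass under TMM (edgeR adjusted p = 0.135).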

How the results depend on the processing

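Over the values of the 10 genes and their alternatives, 426 stayed the same, 17 lost a call, 9 gained one, 11 reversed and 10 moved. For tested values the same means that direction and call were kept. Of the 426, 30 were monosome ratios without a call, which shifted by less than the SD of the control libraries. Another 143 were interaction values, where 0 of the 10 genes were called in the main fit. In total RNA, where 4 genes were called, DESeq2 called 2, and leaving out a library gave 1 to 6, the lowest without *xpo-1* RNAi replicate 2 and 2 without *xpo-1* RNAi replicate 1. With the catalases summed 2 were called, since 3 genes became 1. The counts in total RNA take in *sod-5*, which entered that test only through its high group. In polysome RNA leaving out a library gave 3 to 7 calls, the lowest without *xpo-1* RNAi replicate 1. For the interaction DESeq2 called 2 and the lysate replicate block 1, against 0. All-gene interaction calls were 0 by edgeR, 690 by DESeq2, 576 without a filter, 423 with 10 counts in every library, 671 with the replicate number as block and 1961 with the lysate block. Same-numbered libraries deviated together in control total and polysome RNA (correlation 0.71) and apart under *xpo-1* RNAi (−0.41), so the numbers were not taken as pairs. A block on the replicate number called 5 genes in total RNA, *sod-4* being added (edgeR adjusted p = 0.0318). For the total and polysome alternatives the share of all genes called is not set beside these counts. The counts show which calls depend on the processing, and no gain or loss relative to other genes can be read from them.

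Signs reversed under total-count scaling for *sod-1* (0.18) and *sod-2* (0.18) in total RNA and *sod-1* (0.031) and *sod-3* (0.12) in polysome RNA. Leaving out a library, *sod-1* ran from −0.35 to 0.11 and *sod-2* from −0.31 to 0.070 in total RNA, both above 0 without *xpo-1* RNAi replicate 2. In the interaction *sod-1* ran from −0.35 to 0.26, above 0 without *xpo-1* RNAi total replicate 1 or polysome replicate 1 (0.14), and *sod-4* from −0.054 to 0.52, below 0 without *xpo-1* RNAi polysome replicate 2. In control worms *ctl-3* ran from −0.22 to 0.60. None of these values was called, and the cause was not tested. Monosome log2 ratios moved with a pseudocount of 2 CPM to 0.50 for *sod-4*, 0.20 for *sod-5* and 1.39 for *ctl-1*, and with total-count scaling to 0.49 for *sod-1*, 0.80 for *sod-2*, 0.27 for *sod-4*, 0.23 for *sod-5*, 1.44 for *ctl-1*, 0.29 for *prdx-2* and 0.54 for *prdx-3*. Fits without a library have 3 samples, and the lone sample of a group is assumed to vary like the others.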

Other observations

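Of the 10 genes except *sod-5*, which was not tested there, *ctl-1* had the largest absolute change in polysome RNA. Among 7305 genes with a mean of at least 10 CPM, the 3 whose log2 levels followed it most closely over the 11 libraries were *Y51A2D.13* (Pearson r 0.984), *F52E4.5* (0.984) and *gba-1* (0.982), the last a gene for a glucosylceramidase of the lysosome. The libraries share lysates and control cultures, so these values describe likeness over these libraries. *Y51A2D.13* had 99.0 and 93.5 CPM in *xpo-1* RNAi total RNA, against 30.3 and 29.9 CPM in control total RNA, and 174 and 203 CPM in *xpo-1* RNAi polysome RNA, against 41.2 and 35.9 CPM in control polysome RNA. *gba-1* had 48.1 and 52.1 CPM in *xpo-1* RNAi polysome RNA, against 17.8 and 16.5 CPM in control polysome RNA.

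*nnt-1*, which encodes the nicotinamide nucleotide transhydrogenase that supplies mitochondrial NADPH, was chosen after its values were seen because its mean was under the naming minimum. It had 6.51 and 8.03 CPM in *xpo-1* RNAi total RNA, against 2.39 and 2.54 CPM in control total RNA, and 13.1 and 15 CPM in *xpo-1* RNAi polysome RNA, against 3.49 and 3.59 CPM in control polysome RNA. The groups did not overlap in either kind of RNA, with log2 fold changes of 1.54 in total RNA (edgeR adjusted p = 0.004) and 1.92 in polysome RNA (edgeR adjusted p = 0.000841). *gcs-1*, the rate-limiting enzyme gene of glutathione synthesis and a known target of SKN-1, had 49.0 and 71.5 CPM in *xpo-1* RNAi total RNA, against 48.3 and 43.2 CPM in control total RNA. In polysome RNA it had 103 and 87.6 CPM under *xpo-1* RNAi, against 46.3 and 36.0 CPM in control (log2 fold change 1.14, edgeR adjusted p = 0.00435). Its change in total RNA was not called (log2 fold change 0.38, edgeR adjusted p = 0.188), nor was its interaction (0.81, edgeR adjusted p = 0.234). *gcs-1* too was chosen after its values were seen.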
